A study of Mus musculus with 12 samples.

Results

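Upk3b, Msln, Lrrn4, Slpi and Igfbp6 are 5 of the 12975 genes in the deposited count table of ribosome pull-downs from mouse intestinal muscularis. They were picked by name as markers of the serosal mesothelium and secreted genes that fall with them, so their lower level after injury chose them and is described below without a test. The 12 libraries came from 6 CreERT2 Rpl22HA mice, in which tamoxifen-activated Cre, under a promoter active in enteric glial cells (EGCs), switches the ribosomal protein Rpl22 to an HA-tagged form. Every mouse, controls included, received tamoxifen (2 intraperitoneal doses of 100 µl at 15 mg/ml, at 10 to 12 weeks of age) and was killed 3 to 4 weeks after the first dose. The mice were naïve (T0, 3 mice, numbered 1, 2 and 4) or had undergone intestinal manipulation 3 h earlier (T3, 3 mice, numbered 1, 3 and 4), a procedure in which the small bowel is drawn out through a laparotomy and handled. Muscularis lysate of each mouse was divided between anti-HA antibody, which collects tagged ribosomes, and an isotype IgG, which collects only background RNA, giving 4 groups of 3 libraries.

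The mesothelium is the single layer of flat cells that covers the outer surface of the gut and the other abdominal organs. It gives a slippery, non-adhesive surface, secretes lubricants and protease inhibitors, and is the first tissue that hands or instruments touch in abdominal surgery. Mesothelial cells are not the cells that this glial promoter is used to mark, and the peeled muscularis keeps its serosal face.

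Of the surface proteins, Upk3b (uroplakin 3B) is a membrane protein related to the uroplakin plaques of the bladder lining. Msln encodes mesothelin, a GPI-anchored glycoprotein that binds the mucin MUC16, and Lrrn4 is a transmembrane protein with leucine-rich repeats. The secreted members are Slpi, an inhibitor of neutrophil elastase and other serine proteases, and Igfbp6, a binding protein with a preference for insulin-like growth factor II. In the annotation of the mm10 genome (GENCODE M21, GRCm38) Upk3b lies at chr5:136038496-136046487 on the plus strand and Igfbp6 at chr15:102144362-102149511 on the plus strand. Msln (chr17:25748613-25754378), Lrrn4 (chr2:132868305-132880891) and Slpi (chr2:164354070-164389095) lie on the minus strand. Counts were taken at the 3′ end of each gene, by an annotation release that may differ from M21. With M21, the 3′ window of Slpi also holds the microRNA gene Mir7678 on the same strand, and the windows of the other members hold no second gene.

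Promoter sequences were held by the RefSeq table (GRCm38.p6) for Upk3b, Lrrn4, Slpi and Igfbp6, that is for 4 of the 5 members. These sequences are placed by RefSeq starts, which differ from the M21 starts for Lrrn4, Slpi and Igfbp6. The Slpi window (chr2:164356508-164356757) lies inside the M21 gene. The Igfbp6 window (chr15:102143936-102144185) ends before the M21 start. The 250 bases before the start of Upk3b and of Lrrn4 are shown because these are the members whose window holds the letters GGAATG, the core of the TEAD motif, on either strand. Capitals mark the match, which on the Upk3b strand reads CATTCC. The windows are chr5:136038246-136038495 (plus strand) and chr2:132880863-132881112 (minus strand), written 5′ to 3′ along the gene.
Upk3b: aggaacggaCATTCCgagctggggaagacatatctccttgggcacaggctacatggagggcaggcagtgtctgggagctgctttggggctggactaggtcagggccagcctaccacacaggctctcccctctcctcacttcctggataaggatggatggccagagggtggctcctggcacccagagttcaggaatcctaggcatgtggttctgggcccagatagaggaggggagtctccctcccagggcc
Lrrn4: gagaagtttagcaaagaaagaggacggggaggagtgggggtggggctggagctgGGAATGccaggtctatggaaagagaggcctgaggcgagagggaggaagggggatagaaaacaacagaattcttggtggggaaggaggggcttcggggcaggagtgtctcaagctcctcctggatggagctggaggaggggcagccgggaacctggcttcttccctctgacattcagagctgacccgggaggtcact

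The match starts 241 bases before the Upk3b start and 196 bases before that of Lrrn4, and 2 of 4 members with a window held it, against 12.6% of 32851 RefSeq promoters. The AP-1 letters TGANTCA (6.75% of promoters) and the GC box GGGCGG (32.7%) matched in none of the 4 windows on either strand. TATAAA (12.4% of promoters) and CCAAT (33.8%) matched in the Igfbp6 window only, and none of the matches overlapped. A match of letters is a description and not a shown binding site.

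Library totals ranged from 88136 to 2870591 counts of unique molecular identifiers, with 1221788 or more in each HA library and 88136, 92022 and 248522 in the IgG libraries at T3. Levels are given as CPM, counts scaled to a common library total, which for this 3′ method do not depend on transcript length. The floor used for a count of 0 was 3 counts, equal to between 1.05 and 34.0 CPM depending on the library, and it covers counting error only. The libraries of a group came from separate mice. At T0 all 11 glial marker genes tested were enriched in HA over IgG (edgeR), and their summed level at T3 was 4800 to 5528 CPM in HA. In IgG at T3 it was 1067 and 934.6 CPM in animals 1 and 3 and 233 CPM in animal 4, against 185 to 255 CPM in IgG at T0, so glial RNA in the background differed among these libraries. The pancreatic acinar genes Cela2a and Ctrb1 were seen in both libraries of T3 animal 4 (Cela2a 11 and 22 counts, Ctrb1 17 and 19 counts in HA and IgG) and each had 0 counts in the other T3 libraries.

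In naïve muscularis all 5 members were detected in every library, and each was less abundant in the HA pull-down than in the IgG background, where mean CPM was 2.87-fold (Lrrn4) to 3.43-fold (Upk3b) higher. Upk3b measured 56.4, 51.4 and 39.7 CPM in HA T0 and 124, 149 and 234 CPM in IgG T0. Msln measured 71.4, 60.3 and 59.9 CPM in HA T0 and 144, 182 and 324 CPM in IgG T0. For both genes the lowest IgG library stood above the highest HA library, and the IgG library of animal 4 was the highest of all.

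Lrrn4, the least abundant member, measured 27.6, 26.8 and 16.4 CPM in HA T0 and 48.9, 68.6 and 86.1 CPM in IgG T0. Slpi measured 299.8, 254 and 316 CPM in HA T0 and 729, 501 and 1291 CPM in IgG T0. Igfbp6 measured 296, 315 and 207 CPM in HA T0 and 711, 806 and 869.9 CPM in IgG T0. The secreted pair was thus well above the surface proteins in CPM in every T0 library, with Slpi and Igfbp6 overlapping each other in both pull-downs, while Upk3b and Msln overlapped in IgG and Lrrn4 was the lowest member in each T0 library.

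The antibody contrast did not choose the members and was tested with edgeR. At T0 all 5 members were lower in HA, with log2 fold changes (HA minus IgG) of -1.83 for Upk3b (SE 0.26, adjusted p = 0.000165), -1.81 for Msln (SE 0.27, adjusted p = 0.000307) and -1.59 for Lrrn4 (SE 0.30, adjusted p = 0.00135). The change was -1.57 for Slpi (SE 0.30, adjusted p = 0.00235) as well as for Igfbp6 (SE 0.21, adjusted p = 0.000104). Of all 9823 genes tested 14.4% were called lower in HA at T0 and 16% higher. The HA and IgG values of all 5 members did not overlap, which held in the same direction for 20.1% of genes. All 5 calls held under each of 13 alternatives, with adjusted p between 2.52e-09 and 0.025.

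Genes of other cell types were lower in HA too: 12 of 12 smooth muscle genes, 8 of 11 fibroblast genes and 10 of 19 epithelial genes tested were lower in HA at T0, with median log2 fold changes of -1.45, -1.13 and -1.39 beside -1.59 for the members. The members ranked 400 to 607 from the most negative of the 9823 changes, of which 14.4% were called lower. Within each mouse, where both antibodies saw one lysate, the IgG level exceeded the HA level for every member. The summed CPM of the members was 2.34-fold higher in IgG in animal 1, 2.41-fold in animal 2 and 4.40-fold in animal 4. Animal 4 had the largest ratio for each member, from 4.09-fold for Slpi to 5.90-fold for Upk3b, whereas animals 1 and 2 lay between 1.77-fold (Lrrn4) and 3.01-fold (Msln).

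**Figure D1:**
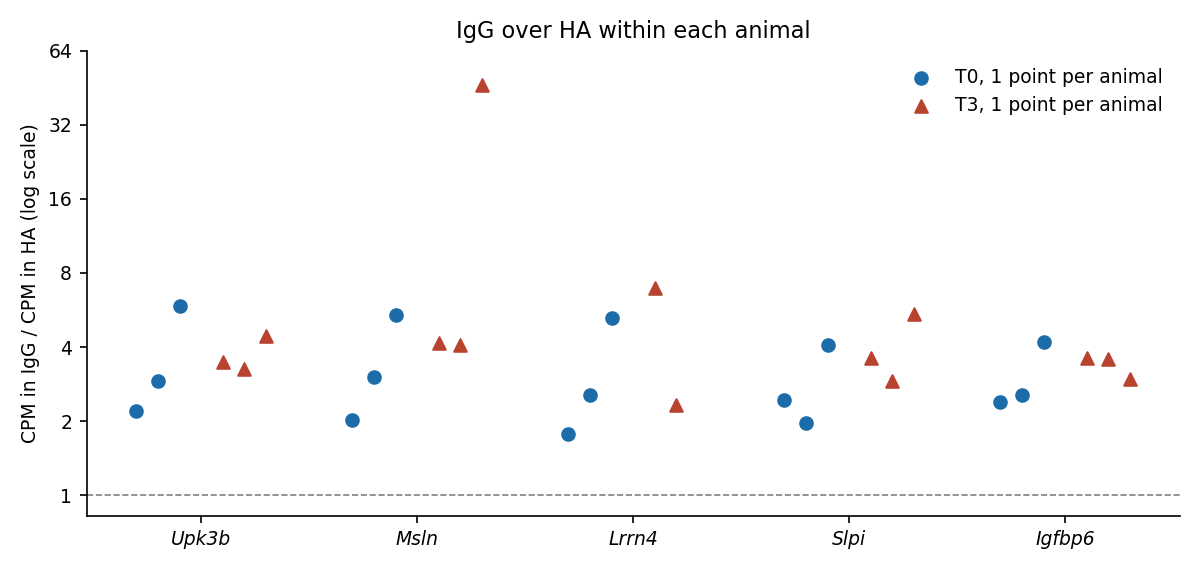
CPM in IgG divided by CPM in HA for each member (log scale), 1 point per mouse, at T0 (circles, animals 1, 2 and 4 from left to right) and T3 (triangles, animals 1, 3 and 4), with a dashed line at 1. Every plotted ratio is above 1, Msln in T3 animal 4 reaches 46.5 on 2 HA counts, and Lrrn4 in T3 animal 4 is left out because its IgG count was 0.

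At T3, 3 h after manipulation, every member was low in both pull-downs. The T0 mice were naïve, so anaesthesia, laparotomy and handling of the bowel cannot be told apart in any contrast of T3 with T0. Upk3b measured 6.55, 3.34 and 5.45 CPM in HA T3 and 22.7, 10.9 and 24.1 CPM in IgG T3. Msln measured 8.18, 8.02 and 1.56 CPM in HA T3 and 34.0, 32.6 and 72.4 CPM in IgG T3, and Lrrn4 3.27, 4.68 and 0.779 CPM in HA T3 and 22.7, 10.9 and 0 CPM in IgG T3. For these surface proteins, chosen for their fall, each T3 library lay below each T0 library of the same antibody. Of all genes tested, 35.2% in HA and 12.6% in IgG did the same. The IgG T3 values rest on few counts, 2, 1 and 6 for Upk3b, 3, 3 and 18 for Msln and 2, 1 and 0 for Lrrn4.

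Slpi measured 22.1, 18.7 and 28.8 CPM in HA T3 and 79.4, 54.3 and 157 CPM in IgG T3. Igfbp6 measured 22.1, 39.5 and 38.2 CPM in HA T3 and 79.4, 141 and 113 CPM in IgG T3. The secreted members, also chosen for their fall, likewise did not overlap with T0 in either pull-down (35.2% of all genes tested in HA, 12.6% in IgG). They remained the most abundant members in each T3 library. Slpi and Igfbp6 together made 66.7% to 89.6% of the summed member CPM over the 12 libraries.

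**Figure D2:**
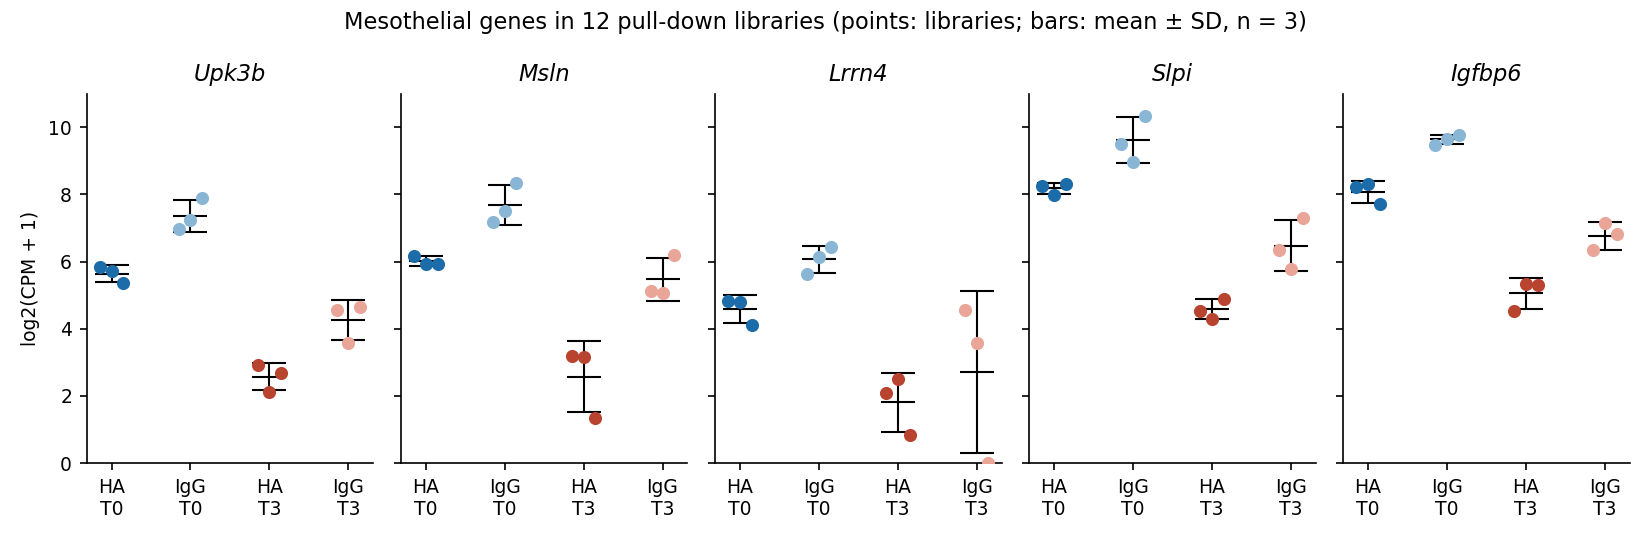
Level of each member as log2(CPM + 1) in the 4 groups, with points for single libraries and bars for mean ± SD (n = 3). In each panel the T3 points of an antibody lie below its T0 points, and at T0 the IgG points lie above the HA points. Of all genes tested, 35.2% in HA and 12.6% in IgG had every T3 library below T0. At T0, 20.1% had every HA library below IgG. The members were chosen for their fall.

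Set in folds, the mean CPM in HA was 9.62-fold lower at T3 than at T0 for Upk3b, 10.8-fold for Msln, 8.11-fold for Lrrn4, 12.5-fold for Slpi and 8.20-fold for Igfbp6. In IgG the mean was 8.78-fold lower for Upk3b, 4.67-fold for Msln, 8.67-fold for Slpi and 7.16-fold for Igfbp6. For Lrrn4, with 3 counts in all in IgG at T3, the pooled ratio of T0 to T3 was 10.7 (95% exact interval 3.61 to 52.6, counting error only). The summed CPM of the members was 698.8 ± 57.0 in HA T0, 70.4 ± 7.09 in HA T3, 2089 ± 621 in IgG T0 and 285 ± 70.7 in IgG T3 (SD, n = 3). HA T3 thus held 10.1% and IgG T3 13.6% of the T0 sum. These folds and percents use library totals. With that scaling the median log2 change of all genes tested was -0.29 in HA and -0.02 in IgG. In bulk samples fewer cells with these RNAs and less of these RNAs per cell cannot be told apart. Which cell types held the RNAs, mesothelial cells or others such as fibroblasts, was not tested.

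On the fitted scale, the log2 changes in HA (T3 minus T0) were -3.02 (SE 0.33) for Upk3b, -3.15 (SE 0.34) for Msln, -2.69 (SE 0.45) for Lrrn4, -3.38 (SE 0.22) for Slpi and -2.76 (SE 0.25) for Igfbp6. In IgG they were -3.04 (SE 0.49) for Upk3b, -2.08 (SE 0.46) for Msln, -3.01 (SE 0.47) for Slpi and -2.85 (SE 0.32) for Igfbp6. The median over the members was -3.02 in HA, where the median of all 9441 genes tested was -0.02, and -2.85 in IgG with Lrrn4 taken at its floor of 3 counts per library, where the median of all 5219 genes was -0.02. From the most negative change in HA, Slpi was in place 7, Msln 8, Upk3b 9, Igfbp6 14 and Lrrn4 16. In IgG, Upk3b was in place 8, Slpi 9, Igfbp6 11 and Msln 38. These places follow from how the members were chosen. As background, 15.1% of genes were called lower and 18.7% higher at T3 in HA (edgeR) and 35.2% had no overlap in the lower direction, while in IgG 1.03% were called lower, 4.43% higher and 12.6% had no overlap in the lower direction.

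At T3 the difference between antibodies passed for 3 members, all lower in HA. The log2 fold change by edgeR was -3.05 in Msln (SE 0.58, adjusted p = 0.00104). It was -2.16 in Slpi (SE 0.41, adjusted p = 0.000929). It was -1.65 in Igfbp6 (SE 0.37, adjusted p = 0.00324), while Upk3b and Lrrn4 had too few counts to be tested. Among all 7200 genes tested 10.2% were lower and 11.8% higher in HA. The values of Upk3b, Msln, Slpi and Igfbp6 did not overlap between the antibodies, as in 16.4% of genes, and those of Lrrn4 did. These calls rest on the deepest IgG library at T3: without animal 4 of that group 0 of 5 members passed (log2 fold change -2.18 and adjusted p = 0.131 for Msln, -1.25 and 0.163 for Slpi, and -1.45 and 0.0557 for Igfbp6). Within mice the summed CPM was 3.83-fold higher in IgG in animal 1, 3.37-fold in animal 3 and 4.90-fold in animal 4. For Msln the ratio was 4.16 in animal 1, 4.06 in animal 3 and 46.5 in animal 4, the last with an exact interval of 11.1 to 413 because HA held 2 counts.

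Whether the fall differed between the pull-downs was not used to choose the members and was tested as an interaction over all 12 libraries. The change in HA minus that in IgG was 0.12 for Upk3b (SE 0.76), -1.01 for Msln (SE 0.63), 0.65 for Lrrn4 (SE 1.11), -0.34 for Slpi (SE 0.51) and 0.17 for Igfbp6 (SE 0.41) on the log2 scale. None of the 5 passed in edgeR (adjusted p from 0.611 to 0.975), 0 had an unadjusted p under 0.05, and DESeq2 likewise called 0 and had 0 under 0.05. Of all 10314 genes 0.33% were called. The standard errors were wide, above all for the surface proteins, so an equal fall in both pull-downs was not shown. The sign of the members' median also depended on the scaling, at 0.12 with TMM, -0.03 with DESeq2 size factors and -0.21 with library totals, while the median of all genes was 0.18, 0.02 and -0.18.

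A wider list of 29 other mesothelial genes, written from general knowledge, was set beside the members. Muc16, Sbspon and Prg4 were not analysed here, and 26 were in the table. Wt1, a transcription factor of mesothelium, measured 6.53, 5.03 and 4.53 CPM in HA T0 and 30.9, 27.4 and 31.0 CPM in IgG T0, and at T3 it had 1, 1 and 6 counts in HA and 0, 1 and 0 counts in IgG. Of 23 genes tested at T0, 13 were lower in HA, among them Wt1 (log2 fold change -2.48), Gpm6a (-2.71), Krt7 (-2.25), Krt19 (-2.02), Upk1b (-1.81) and C3 (-1.53). Nkain4 (1.64), Aldh1a1 (1.79), which makes retinoic acid, and Rarres2 (0.69), the precursor of the chemoattractant chemerin, were higher in HA, Rarres2 with an adjusted p of 0.0453 that became 0.0589 to 0.145 without any 1 of the libraries other than IgG T0 animal 4. The list median was -1.25, and -0.02 over all genes, of which 14.4% were called lower in HA and 16% higher.

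After manipulation 13 of 21 tested genes of this list were lower in HA and 1 was higher, with a median log2 change of -1.15. Of all genes tested over time in HA, 15.1% were called lower and 18.7% higher. Upk1b, the tetraspanin partner of uroplakin 3 proteins, fell from 18.8, 21.8 and 20.6 CPM in HA T0 to 0, 0.669 and 1.56 CPM in HA T3, a pooled ratio of 27.0 (exact interval 9.06 to 132). Chst4, a sulfotransferase, had 31, 20 and 27 counts in HA T0 and 0, 1 and 0 in HA T3, a ratio of 43.0 (exact interval 7.49 to 1718). Krt7, a keratin of simple epithelia and mesothelium, had 54, 34 and 64 counts in HA T0 and 2, 3 and 0 in HA T3, a ratio of 16.7 (exact interval 7.02 to 52.3). Anxa8, an annexin, had 22, 16 and 26 counts in HA T0 and 0 in each HA T3 library, which is at least 3.89-fold lower against the floor of 3 counts per library. Gpm6a, a membrane glycoprotein also found on neurons, had 71 counts over HA T0 and 6 over HA T3, a ratio of 6.52 (exact interval 2.85 to 18.4). Each of these 5 genes had no more than 3 counts in any HA T3 library. They entered the test through their HA T0 counts, so their calls, which are among the 13, are description only.

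Other genes of the list that passed kept more counts at T3. Rspo1, a secreted amplifier of Wnt signals, fell from 44.2, 57.0 and 52.3 CPM in HA T0 to 8.18, 6.69 and 7.79 CPM in HA T3 (log2 change -2.49, SE 0.28, edgeR adjusted p = 7.95e-07). The keratins Krt19 (-1.74), Krt8 (-1.61) and Krt18 (-1.15), the claudin Cldn15 (-1.37), the retinoic acid enzyme Aldh1a2 (-0.64) and the laminin receptor Bcam (-0.49) also passed. C3, counted among the 13, is given without a p because it is described below as a gene chosen for its likeness to the members. Without HA T3 animal 1 the adjusted p was 0.121 for Krt8, 0.081 for Krt18, 0.0805 for Aldh1a2 and 0.0759 for Bcam, and each of these genes also missed the threshold without at least 1 HA T0 animal. Pdpn, the mucin-type protein podoplanin, rose from 23.8, 19.6 and 22.3 CPM to 54.8, 61.5 and 36.6 CPM in HA (log2 change 1.48, SE 0.24, adjusted p = 9.65e-05). Nkain4 (-0.04), Ildr2 (-0.03), Aldh1a1 (-0.38), Efemp1 (-0.67), Dmkn (-0.51), Calb2 (0.47) and Rarres2 (-0.45) did not pass. Nkain4 in particular held 301, 214 and 198 CPM in HA T0 and 199.7, 186 and 195 CPM in HA T3, and it was higher in HA than in IgG at both times (log2 fold change 3.25 at T3, adjusted p = 2.83e-05).

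**Figure D3:**
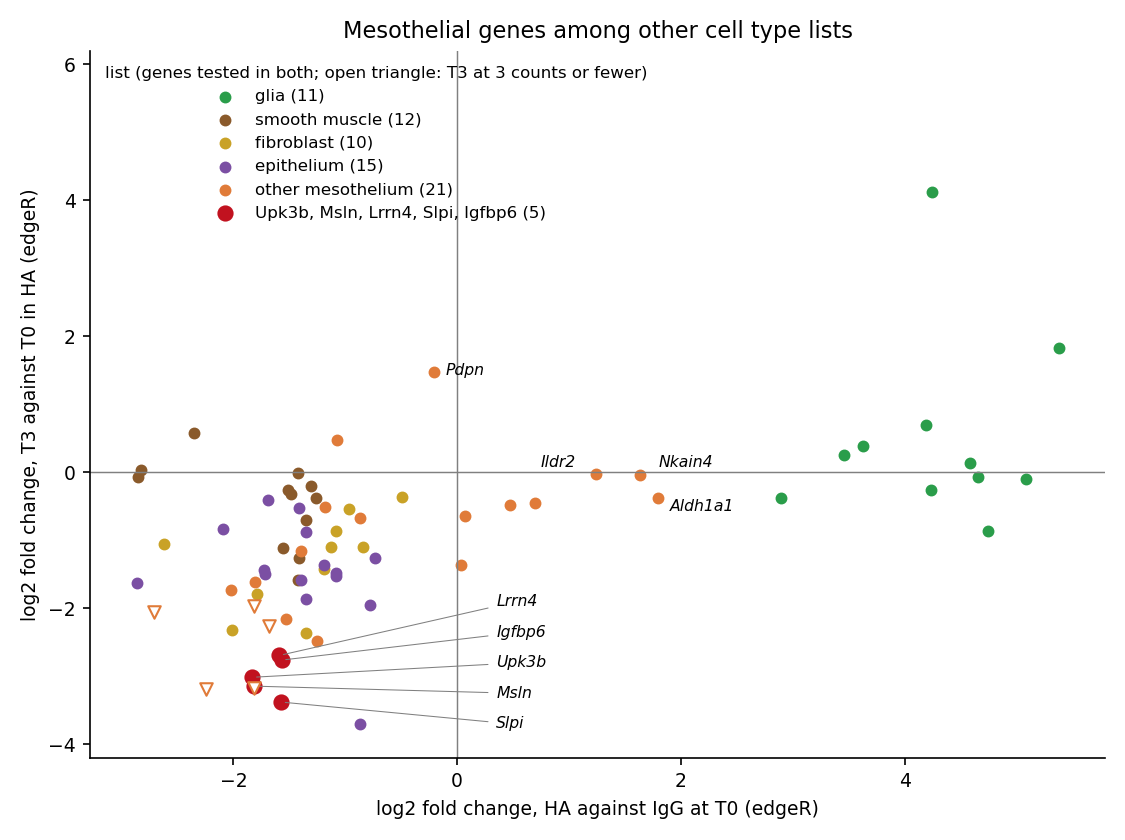
Log2 fold change of HA against IgG at T0 (x axis) and of T3 against T0 in HA (y axis) for genes of 6 lists that were tested in both contrasts, which share the HA T0 libraries. The members and most other mesothelial genes lie at lower left. All epithelial and fibroblast genes and most smooth muscle genes lie there too, and the 11 glial genes lie at right. Open triangles mark genes with 3 counts or fewer in each HA T3 library, drawn at their fold against a floor of 3 counts.

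In IgG 5 of 17 genes of the list passed, all lower at T3. They were Rarres2 (log2 change -1.67, edgeR adjusted p = 0.018), C3 (-2.14, without a p as in HA), Upk1b, Gpm6a and Cldn15 (-2.61). Upk1b, Gpm6a and Cldn15 had 7 counts or fewer in each IgG T3 library. These genes entered the test through their IgG T0 counts, so their calls are description only. Of all genes tested over time in IgG, 1.03% were called lower. The list median in IgG was -1.35 with genes near 0 taken at their floor. The count of 5 list genes became 1 without IgG T0 animal 4 and 2 without IgG T3 animal 4, and 13 without the filter on low counts. Between antibodies at T3, 10.2% of all genes tested were lower and 11.8% higher in HA. Of 13 genes of the list tested there, C3 (-1.72), Krt8 (-2.34), Krt19 (-2.52) and Calb2 (-0.98) were lower in HA and Nkain4, Pdpn (1.92) and Rarres2 (1.75) higher. Without IgG T3 animal 4, 2 were lower, with adjusted p = 0.256 for Krt8, 0.268 for Calb2 and 0.118 for Pdpn. Calb2 also missed the threshold with mouse as a block (adjusted p = 0.0512), without the filter (0.126), with all 12 libraries in 1 fit (0.0842) and without HA T3 animal 1 or 3 or IgG T3 animal 1 (0.0577 to 0.086). The interaction called 0 of 24 genes of the list, with Pdpn at 2.37 (SE 0.60, adjusted p = 0.1) and Nkain4 at 1.86 (SE 0.51, adjusted p = 0.141).

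The plot of list levels sets the members, chosen for their fall, beside other cell types. For the counts that follow, 15.1% of all genes tested over time in HA were called lower and 18.7% higher. In HA at T3 the other mesothelial genes held 56.0% of their T0 sum, a sum carried by the abundant Rarres2, Bcam and Aldh1a1, against 10.1% for the members. Fibroblast genes held 34.7%, with 6 of 10 called lower (median log2 change -1.10), and macrophage genes 42.7%, with 4 of 7 lower. The 6 fibroblast genes include Dcn and Col3a1, which are described below as genes chosen for their likeness to the members. Epithelial genes held 27.2% with 2 of 15 called lower, smooth muscle genes 66.4% with 4 of 12 lower, adipocyte genes 59.3% with 0 of 6 called, and glial genes 111% with 1 lower and 3 higher of 11. Epithelial genes, which share keratins with the mesothelium, ranged from 376 to 1949 CPM among the HA T0 libraries and from 175 to 451 CPM in HA T3, and Epcam, their defining surface marker, measured 20.0, 47.5 and 7.32 CPM in HA T0 and 0, 1.34 and 3.11 CPM in HA T3 (adjusted p = 0.0609). The part of epithelial, fibroblast or adipocyte tissue left on the muscularis in the members' fall was not tested.

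**Figure D4:**
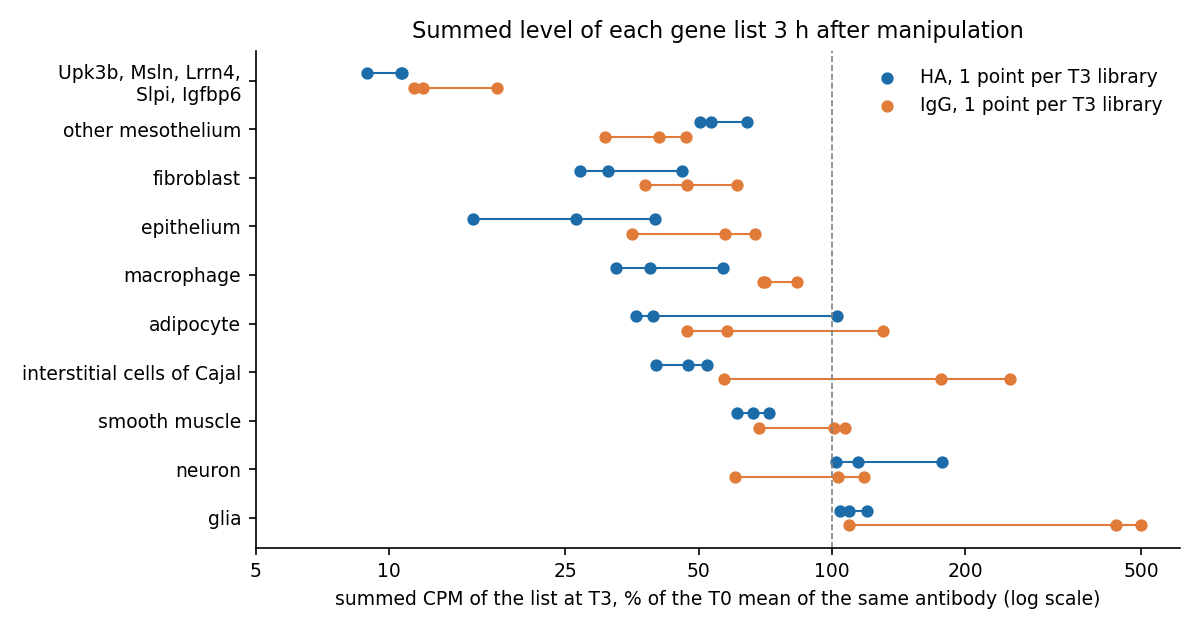
Summed CPM of each gene list in each T3 library as a percent of the T0 mean of the same antibody (log scale), with a line from the lowest to the highest library. The members lie between 8.90% and 10.7% in HA and between 11.4% and 17.5% in IgG, below the other lists shown. Sums use library totals, under which the median log2 change of all genes tested was -0.29 in HA and -0.02 in IgG.

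Relatives of the secreted members were described from whole lists. In the IGF axis, 9 genes were tested over time in HA, among them Igfbp6, which was chosen for its fall. Igfbp3 rose from 7.29, 10.1 and 4.18 CPM in HA T0 to 31.9, 30.8 and 56.1 CPM in HA T3 (log2 change 2.76, SE 0.35, edgeR adjusted p = 4.87e-06). Igfbp7 (-1.38, adjusted p = 0.0749), Igfbp4 (-0.38), Igfbp5 (-0.28), Igfbp2 (0.11) and the ligand Igf2 (-0.40) did not pass. The receptors Igf1r (0.14) and Igf2r (0.19) did not pass either. At T0 Igfbp4 (1.18), Igfbp7 (1.02), Igf2 (1.64) and Igf2r (0.99) were higher in HA than in IgG, while Igf1 (-1.81), Igfbp3 (-1.28) and Igfbp5 (-0.52) were lower like Igfbp6. The calls of Igfbp3, Igfbp5 and Igf2r were lost in several fits that left out a library, for example without HA T0 animal 1 (adjusted p = 0.093, 0.0775 and 0.0566). Igf2 at T3 was at 2 counts or fewer in each IgG library.

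Among serine proteases and their inhibitors, 10 genes were tested over time in HA, among them Slpi, which was chosen for its fall. Serpina3n rose from 69.5, 70.4 and 68.6 CPM to 187, 399 and 200.1 CPM (log2 change 2.18, SE 0.27, adjusted p = 2.22e-05). Wfdc1, which like Slpi carries a whey acidic protein domain, changed by -0.42 in HA (adjusted p = 0.0687) and by -1.44 in IgG (adjusted p = 0.0205, and 0.0507 to 0.104 without IgG T0 animal 1, 2 or 4 or IgG T3 animal 4). The complement inhibitor Serping1 (-0.77, adjusted p = 0.0529), Serpine2 (0.39), Serpinf1 (0.26), Spint1 (-0.78), Spint2 (-0.22) and the neutrophil protease Prtn3 (0.44) did not pass in HA. Elane and Ctsg, the main neutrophil proteases that SLPI inhibits, were not analysed here.

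**Figure D5:**
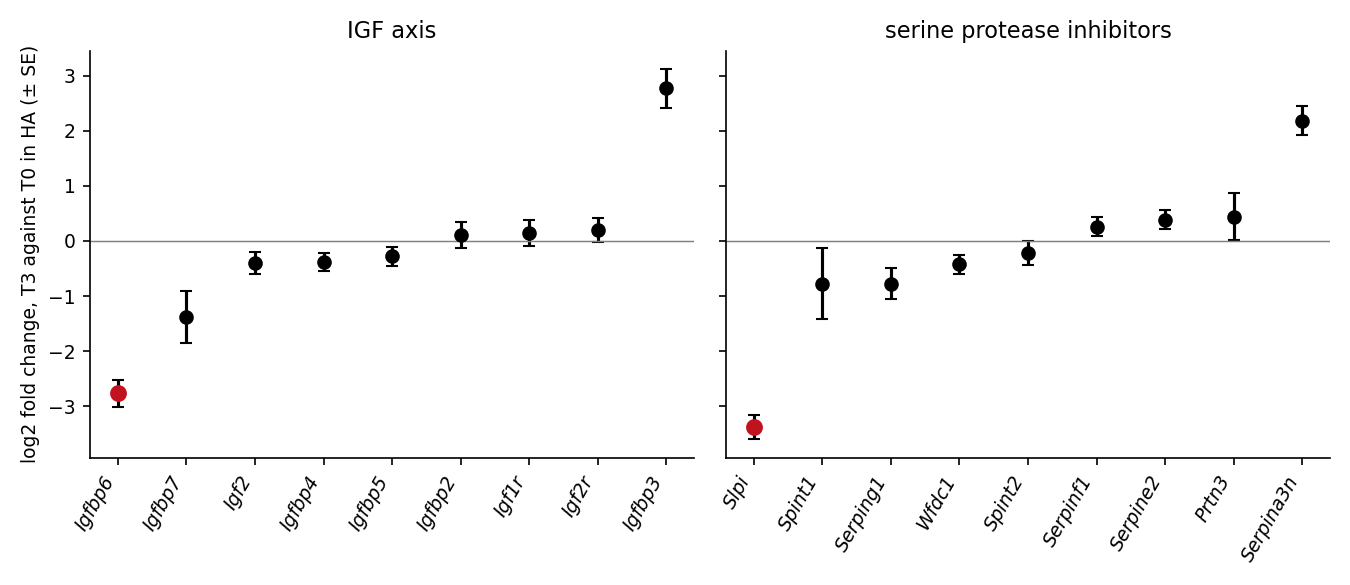
Log2 change from T0 to T3 in HA (± SE, edgeR) for genes named here of the IGF axis (left) and of serine proteases and their inhibitors (right), with Igfbp6 and Slpi in red. Both red points, chosen for their fall, lie lowest in their panel, and Igfbp3 and Serpina3n lie highest.

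Of the LRRN family, Lrrn2 was high in the glial pull-down: it measured 280, 399 and 308 CPM in HA T0 against 36.1, 22.3 and 20.9 CPM in IgG T0 (log2 fold change 3.69, SE 0.27, adjusted p = 3.42e-07). Over time in HA it changed by -0.63 (adjusted p = 0.0125), a call lost when animal 2 of HA T0 (adjusted p = 0.073) or animal 4 of HA T3 (adjusted p = 0.0981) was left out. Lrrn4cl, the Lrrn4 C-terminal like gene, had 12 counts or fewer in every HA library. Upk1b and Upk3b were the uroplakins analysed here, and the mesothelin-like gene Mslnl had 5 counts or fewer in every library.

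Across the 12 libraries the members followed one another, with Pearson r of log2(CPM + 1) between 0.73 (Lrrn4 and Msln) and 0.98 (Slpi and Upk3b). The pairs with Lrrn4 were the lowest, 0.73 to 0.80. These libraries form 4 groups that differ in antibody, time and depth, so the values describe likeness and carry no test. By the same measure against the members' mean standardised level, the nearest 10 of 10165 genes were C3 (r = 0.98), Ackr4 (0.98), Ly6e (0.96), Dcn (0.95), Thoc7 (0.95), Slc25a4 (0.95), Hoxc6 (0.95), Col3a1 (0.95), Ssfa2 (0.95) and Vti1b (0.94). C3, the central complement component and a gene of the wider mesothelial list, measured 361, 553 and 342 CPM in HA T0, 935, 886 and 1724 CPM in IgG T0, 78.6, 95.6 and 58.4 CPM in HA T3 and 306, 304 and 229 CPM in IgG T3. Ackr4, a scavenger receptor for chemokines, measured 53.8, 80.5 and 62.7 CPM in HA T0, 152, 149 and 174 CPM in IgG T0, 18.8, 18.1 and 16.4 CPM in HA T3 and 56.7, 43.5 and 48.3 CPM in IgG T3. Both were lower at T3 in each pull-down without overlap, as were 35.2% of all genes tested in HA and 12.6% in IgG. Their log2 changes in HA were -2.16 for C3 and -1.61 for Ackr4, smaller in size than those of the members. Dcn (decorin) and Col3a1 (a fibrillar collagen), at -1.79 and -1.43, belong to the fibroblast list.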

How the data were processed

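Ribosome-bound RNA was measured in 12 bulk libraries, 1 HA and 1 IgG library from each of 6 mice. Per the labels, a bulk form of MARS-seq was used, which tags molecules (UMIs) and reads 3′ ends. The authors used cutadapt for trimming and STAR 2.4.2a for mapping to mm10, kept uniquely mapped reads and counted UMIs with HTSeq from 1000 bases upstream to 100 bases downstream of annotated 3′ ends. The deposited values are raw counts per gene without normalisation, identical in the series table and the sample files (0 differing values). Whether counting used strand, and which libraries shared an amplification pool, is not given in the sources used here, and reads shared by near-identical gene copies were lost to unique mapping. The authors' own normalisation with DESeq2 1.26.0 is not in these counts. CPM was computed from library totals (88136 to 2870591 counts).

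Tests used edgeR 4.0.16 under R 4.3.3 (quasi-likelihood F-test, robust, TMM, filterByExpr), with Benjamini-Hochberg adjustment across every gene tested in a contrast and a limit of 0.05. The contrasts were HA against IgG at each time, T3 against T0 in each pull-down, and their interaction, without covariates. The members, gene lists, motifs and tests were chosen with earlier results of these data known. All 5 members are named in each comparison, listed genes when they passed the filter or had at least 10 counts in a library, and the 10 genes nearest in pattern. Intervals on count ratios are exact 95% conditional binomial (Clopper-Pearson) intervals and cover counting error only. The fits were tested on simulated counts with known changes.

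HA and IgG libraries with 1 number come from 1 mouse, since each lysate was divided, so they were also fitted with mouse as a block. Deviations from the group means of the paired libraries correlated at 0.27 for each T0 mouse and at 0.16, 0.16 and 0.092 for the T3 mice. Numbers shared across times mark different mice. Alternatives were scaling by DESeq2 size factors or library totals, no filter, a minimum of 5 counts in 1 library, all 12 libraries in 1 fit, DESeq2 1.42.0, non-robust dispersion for the interaction, the block, and leaving out each library. Some items are not reported here.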

Additional observations from a re-analysis of the deposited data

How the results depend on the processing

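The members' lower level in HA at T0 and the absence of a called interaction were the same in number under each alternative. The median log2 change of the members in HA was -3.02, and -3.28 with library totals, which also moved the median of all genes to -0.29 and the share of calls that were higher from 55.4% to 31.1%. The number of members lower in HA at T3 was 3, with a range of 0 to 4 over fits that left out a library and 0 without IgG T3 animal 4. For the other mesothelial genes lower at T3 in IgG (5), the count was 13 without a filter, 9 with a minimum of 5 counts, 12 with all libraries in 1 fit and 9 with the replicate block, and 1 to 7 over fits that left out a library. Their count lower in HA than in IgG at T3 (4) ranged from 2 to 6. Leaving out a library gave medians of -3.23 to -2.86 for the members in HA and -3.18 to -2.70 in IgG, 9 to 14 other mesothelial genes lower at T3 in HA, and 9 to 15 lower in HA than in IgG at T0. The replicate block changed no call of a member. Between times within a pull-down it joins different mice that share only a number (correlations of deviations in IgG 0.17 and 0.012), so it is no pairing there.

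No called result changed direction. The interaction values, none of them called, crossed 0 for Upk3b (-0.28 to 0.51), Lrrn4 (-0.47 to 1.85), Slpi (-0.88 to 0.44) and Igfbp6 (-0.040 to 0.35) over fits that left out a library. For Upk3b the interaction was -0.031 with DESeq2 size factors, -0.21 with library totals and -0.050 by DESeq2, against 0.12, and for Igfbp6 -0.19 with library totals, against 0.17. The cause was not tested. Over 92 results for single genes, 1097 values under alternatives stayed the same, that is kept their direction and, where tested, their call. The members' changes over time were not tested and counted as the same when they moved by less than the spread between libraries. Of the other values 14, all uncalled interactions, changed sign, 100 missed the threshold and 3 moved by more than that spread. Depth limits the IgG libraries at T3 most, where 3 counts correspond to 12.1 to 34.0 CPM, above the level of Lrrn4 in each of them.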
